A study of Mus musculus with 12 samples.

Results

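Livers that had lost both Apc and Myc (the ApcMyc group, 3 arrays) were compared with livers that had lost Myc alone (the Myc group, 3 arrays), so that Apc loss was measured where Myc was deleted on both sides. The 6 arrays were picked by their genotype labels from a study of 12 arrays of mouse liver RNA. The other 6 arrays are the Apc group (3 arrays) and the WT group (3 arrays), which give the same contrast with Myc intact. ApcMyc mice were homozygous for a floxed Apc and a floxed Myc allele, Myc mice for the floxed Myc allele, Apc mice for the floxed Apc allele, and WT mice carried neither. All 4 groups were AhCre-positive, controls included: AhCre is a Cre recombinase driven by the Cyp1a1 promoter, which hepatocytes switch on when beta-naphthoflavone reaches them. All animals received beta-naphthoflavone at 80 mg/kg, 3 times within 1 day, and livers were taken on day 4. The labels give neither sex nor age, and each array title holds an identifier of its own, which no label says to be an animal, so every p-value measures only how these arrays spread, which may be technical.

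Of the 32176 probe sets with deposited values, 61 are array controls and 32115 were tested. Gene names are known for 2517 of them, which stand for 2176 genes, through lists that the authors had drawn up for other comparisons of these arrays. Of the 2975 probe sets in those lists 2871 were chosen for a change between ApcMyc and WT, a comparison that shares the ApcMyc arrays with the one described here. A high share of changed genes among the named ones is therefore partly built in, and no gene group below is independent evidence of a direction. A measured gene of a group is one that has a name here, and members without a name are not counted. Named members are 14 of 49 genes in the Wnt list, 20 of 58 in the DNA replication list and 27 of 78 in the mitosis list. The Apc gene itself is not among the named genes. Signals below are quantile-normalized array brightness, which can be compared between arrays for 1 probe set and not between genes. Differences are ApcMyc minus Myc on the scale of log2(signal + 16), fitted with limma over all 12 arrays, and a gene is said to have risen or fallen where its p, adjusted over all 32115 probe sets by the method of Benjamini and Hochberg, was under 0.05. This scale understates the change of dim genes.

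Apc is the scaffold of the complex that destroys beta-catenin, through which Wnt signals act. Without Apc beta-catenin accumulates and acts with TCF factors on its target genes. In the liver this pathway sets zonation: hepatocytes around the central vein receive Wnt signals, make glutamine and express detoxifying enzymes, while hepatocytes around the portal vein make urea and glucose and break down amino acids. Myc is a transcription factor of cell growth and itself a Wnt target in gut and liver tumours.

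Apc loss moved a large part of the measured transcriptome with Myc deleted. Of all probe sets 4302 were called, which is 13.4%, with 2131 up (6.64%) and 2171 down (6.76%). At least 2-fold rises numbered 1003 (3.12%) and at least 2-fold falls 792 (2.47%). Among named genes 971 were called, 44.6% of the 2176, with 501 up (23.0%) and 470 down (21.6%). The 3 ApcMyc arrays all lay above or all below the 3 Myc arrays in 35.7% of probe sets, called or not (17.0% above and 18.8% below). Among named genes this held for 1447 of 2176. With every array brought to 1 median signal instead of quantile normalization, the calls split into 1748 up and 3463 down (33.5% up), so the balance of rises and falls depends on the scaling. Without ApcMyc replicate 1 the number of calls was 2715, and without Myc replicates 1, 2 and 3 it was 2780, 2539 and 2651.

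The ApcMyc arrays were brighter before normalization, with median signals of 106.9, 86.5 and 86.8, against 78.9, 59.5 and 61.6 in Myc arrays. After normalization the 18S rRNA control probe sets were lower in ApcMyc livers, by 0.58 on the log2 scale (exact two-sided permutation p = 0.1, the smallest that 3 arrays against 3 allow), and the actin controls were higher by 0.32 (exact p = 0.1). The part of brightness and of the rRNA signal in the results was not tested. Correlations across probe sets lay between 0.9695 and 0.9758 within ApcMyc, between 0.9773 and 0.9805 within Myc, and between 0.9406 and 0.9482 across the groups. In ApcMyc replicate 2 genes of mitosis stood far below the other ApcMyc replicates, as described with those genes. Myc mRNA gave a dim signal of 25.3, 28.8 and 29.5 in ApcMyc livers, against 13.6, 28.2 and 23.5 in Myc livers, and the groups overlapped, with a difference of 0.24 (SE 0.286, adjusted p = 0.645). The deleted part of Myc is not given, and the probe set may lie outside it, so the ApcMyc and Myc signals alone do not check the deletion. In Apc livers the same probe set was brighter than in WT livers, with an interaction of -2.49, as given in a closing section. That call was lost in 3 of 23 settings. What these values say of the deletion was not tested.

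Wnt pathway genes rose with Apc loss although Myc was deleted. Of 14 measured genes of the pathway and its targets, 10 rose and 2 fell, with a median difference of 1.38, against 0.13 over all named genes and -0.02 over all probe sets. Axin2, a negative regulator and a standard readout of the pathway, had signals of 516, 556 and 845 in ApcMyc livers, against 145, 126 and 228 in Myc livers, a difference of 1.85 (SE 0.253, adjusted p = 0.000584). Another probe set of Axin2 was not called and had a difference of 0.48. Lgr5, the R-spondin receptor of pericentral hepatocytes and stem cells, had 575, 542 and 428 in ApcMyc livers, against 136, 137 and 142 in Myc livers, a difference of 1.77 (SE 0.196, adjusted p = 0.000142). In both genes every ApcMyc array lay above every Myc array, and the Myc values of Lgr5 were nearly equal. Sp5, a transcription factor that beta-catenin induces directly, had 297, 254 and 329 in ApcMyc livers, against 60.3, 31.5 and 72.7 in Myc livers (2.17, adjusted p = 0.000141). Tbx3, a T-box factor induced in Wnt-driven liver tumours, had 602, 636 and 533 in ApcMyc livers, against 213, 218 and 228 in Myc livers (1.36, adjusted p = 0.000104).

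Parts of the signalling machinery moved as well, in both directions. Rnf43, a ligase that removes Wnt receptors from the cell surface, rose by 1.45 and Tnfrsf19, a receptor of the TNF family, by 1.41. Lrp5, a Wnt co-receptor, rose by 0.62 (adjusted p = 0.0428), a call that was lost without ApcMyc replicate 2 or 3 or any Myc replicate (highest adjusted p = 0.153). The DNA-binding partners of beta-catenin were higher too: Tcf7 had 289.8, 252 and 278 in ApcMyc livers, against 85.9, 118 and 98.6 in Myc livers (1.31, adjusted p = 0.000186). Tcf7l2, the main TCF factor of liver, had 322, 330.0 and 270.4 in ApcMyc livers, against 72.4, 100.4 and 81.5 in Myc livers (1.69, adjusted p = 0.000268). Against this, Lgr4, the other R-spondin receptor measured, fell to 571, 418 and 346 in ApcMyc livers, against 1328, 1211 and 796 in Myc livers (-1.29, adjusted p = 0.00298). Csnk1a1, the kinase that primes beta-catenin for destruction, also fell (-0.54, adjusted p = 0.0486), at a dim signal and with a call that was lost when any 1 of the 6 arrays was left out (highest adjusted p = 0.169). Fzd6 and Wif1, a Wnt receptor and a secreted inhibitor, were not called (-0.24 and -0.0048).

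Promoter sequences are shown for members of this group, most of which rose. Of the 12 called Wnt genes and the 5 named genes with the largest rises, 17 in all, 10 had an entry in the RefSeq-derived promoter table (GRCm38.p6), with 15 windows of 300 bases, 250 before and 50 after an annotated start. The TCF motif CTTTGAT, searched on both strands, was found in 2 of the 15 windows, 1 of Sp5 and 1 of Tnfrsf19. Each is printed in the direction of the gene with the motif in capitals, beside Axin2, whose window held no match and is all in lower case. The Sp5 window is chr2:70474673-70474972 on the plus strand, the Tnfrsf19 window chr14:61037938-61038237 on the minus strand and the Axin2 window chr11:108920099-108920398 on the plus strand.
Sp5: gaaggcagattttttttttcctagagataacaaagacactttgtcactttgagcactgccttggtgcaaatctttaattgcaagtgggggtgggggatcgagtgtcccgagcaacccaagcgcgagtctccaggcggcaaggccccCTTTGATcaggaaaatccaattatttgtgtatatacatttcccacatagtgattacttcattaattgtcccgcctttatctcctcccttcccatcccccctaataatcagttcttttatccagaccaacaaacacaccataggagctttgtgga
Tnfrsf19: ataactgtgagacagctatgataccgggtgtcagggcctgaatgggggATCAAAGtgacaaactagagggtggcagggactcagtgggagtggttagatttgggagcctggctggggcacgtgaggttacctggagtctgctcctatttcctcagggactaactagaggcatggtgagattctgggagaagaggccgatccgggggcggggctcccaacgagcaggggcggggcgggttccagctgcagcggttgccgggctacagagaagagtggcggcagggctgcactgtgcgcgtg
Axin2: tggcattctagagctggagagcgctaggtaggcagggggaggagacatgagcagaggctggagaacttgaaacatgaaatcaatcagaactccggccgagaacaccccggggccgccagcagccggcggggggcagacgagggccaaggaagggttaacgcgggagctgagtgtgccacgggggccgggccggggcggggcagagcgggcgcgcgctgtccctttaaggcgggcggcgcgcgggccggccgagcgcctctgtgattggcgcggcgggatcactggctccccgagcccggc
The motif starts at -104 in Sp5 and at -202 in Tnfrsf19, where it reads on the opposite strand. Over all 32851 windows in that reference the share with this motif was 3.73%. It was in 3.36% of the windows of named genes that rose, in 3.05% for those that fell and in 2.5% for those not called. The E-box CACGTG, a motif of Myc and related factors that was also searched, was in 9.24% of windows of genes that rose, 10.7% of those that fell, 8.57% of those not called and 7.15% of all windows. The HNF4 motif CAAAGTCCA was in 0.42%, 1.53%, 0.446% and 0.475% of the windows in the same order. A match is a run of letters and not a bound site, and these windows hold no distant elements.

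Genes of the central zone rose as a block. Of 17 measured pericentral genes 17 rose, with a median difference of 1.79. In each of the 3 ApcMyc arrays 17 of 17 lay above the highest Myc array. That list holds 40 genes, and members without a name here are not counted. Among all named genes, 1447 of 2176 had no overlap between the groups, in either direction. Glul, glutamine synthetase, which marks the last cells before the central vein, had signals of 7769.8, 8054 and 9090.5 in ApcMyc livers, against 2568, 2515 and 2872 in Myc livers (1.64, SE 0.141). Gstm2, a glutathione transferase, had 6716, 7098 and 7472 in ApcMyc livers, against 995, 955 and 900.1 in Myc livers and Lhpp, a histidine phosphatase, 4475, 5395 and 3952 in ApcMyc livers, against 520.3, 435 and 558 in Myc livers. Their rises of 7.36-fold and 8.85-fold on the log2(signal + 16) scale had adjusted p-values of 1.99e-06 and 2.99e-06. Lect2, a secreted protein known as a beta-catenin target in liver, was among the tightest, with 7837, 7986 and 7939.9 in ApcMyc livers, against 2359, 2240.5 and 2264 in Myc livers (1.78, SE 0.143). Gstm2 belongs to a family of close relatives that its probes may not separate.

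Transporters of the pericentral cells were among the steepest rises. Slc22a3, a carrier of organic cations and the largest rise among the named genes on the log2(signal + 16) scale, which holds down genes with Myc signals near the floor such as Sema3b and Sult1e1, had 3139.8, 3629 and 1324 in ApcMyc livers, against 59.5, 109 and 82.2 in Myc livers (4.67, SE 0.337). ApcMyc replicate 3 had less than the other ApcMyc arrays but far more than any Myc array. Rhbg, a channel for ammonium, had 3267, 3504 and 4168 in ApcMyc livers, against 418, 509.8 and 379.8 in Myc livers (3.02, adjusted p = 1.99e-06). Slc16a10, a carrier of aromatic amino acids, had 3455, 2829 and 3021 in ApcMyc livers, against 665, 517 and 788 in Myc livers (2.23). Slc1a2, which takes up glutamate for glutamine synthesis, had 5700.4, 5527 and 4017 in ApcMyc livers, against 1246, 1017 and 1408 in Myc livers (2.04). Across the 49 measured solute carriers 12 rose and 16 fell, beside 23.0% and 21.6% of all named genes, with a median of -0.05. Of those that fell, Slc3a1, a subunit of the cystine carrier, had 88.5, 66.6 and 104 in ApcMyc livers, against 967, 969.6 and 779 in Myc livers (-3.18, adjusted p = 6.54e-05), and Slc22a7, an organic anion carrier, had 246, 195 and 257 in ApcMyc livers, against 997, 1114 and 1358 in Myc livers (-2.23).

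**Figure D1:**
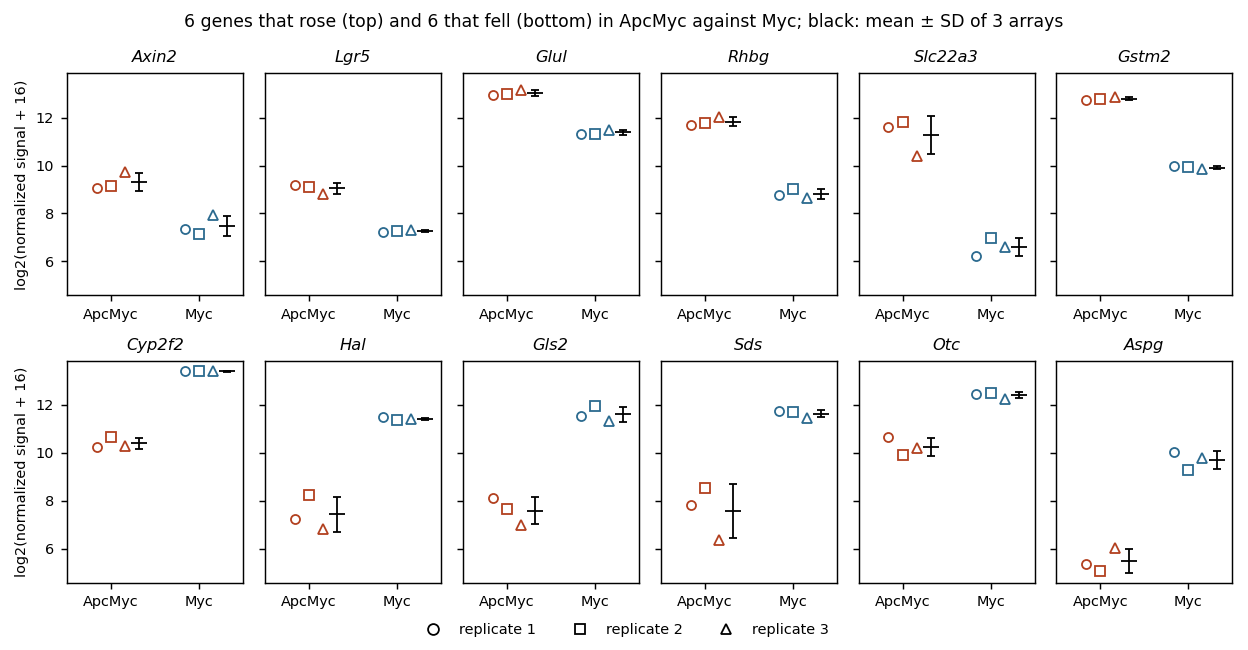
Signals of 6 genes that rose and 6 that fell, on the scale of log2(normalized signal + 16), with the 3 ApcMyc arrays left of the 3 Myc arrays in each panel, symbols for the replicates and the mean ± SD in black. The groups do not overlap in any of the 12 panels, and the spread among ApcMyc arrays is widest for Slc22a3, Hal and Sds.

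Genes of the portal zone fell as a block. Of 20 measured periportal genes 20 fell, with a median of -1.93. In each of the 3 ApcMyc arrays 20 of 20 lay below the lowest Myc array, beside no overlap in 1447 of 2176 named genes. That list holds 41 genes, and again only those with a name here are counted. The median distance from the Myc mean was -1.78 in ApcMyc replicate 1, -2.42 in replicate 2 and -2.13 in replicate 3. Cyp2f2, the P450 most used as a periportal marker, had 1202, 1603 and 1236 in ApcMyc livers, against 10760.4, 10760.4 and 11018 in Myc livers (-3.01, adjusted p = 0.0021). Hsd17b6, a steroid dehydrogenase, had 610.2, 346 and 469.7 in ApcMyc livers, against 3143, 3032 and 3776 in Myc livers (-2.79), and Pigr, the receptor that carries antibodies into bile, had 899.6, 1074 and 894 in ApcMyc livers, against 3624, 2838 and 3089 in Myc livers (-1.72). In bulk RNA, fewer cells of a kind and less RNA per cell cannot be told apart, and this holds for every gene named here.

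Of 5 measured genes of histidine breakdown 4 fell, and all 4 also stand in the periportal list. They form a consecutive pathway. Hal, which starts it, had 133, 288 and 96.4 in ApcMyc livers, against 2831, 2630.0 and 2716 in Myc livers (-3.99, SE 0.398). Uroc1, the next enzyme, fell by 1.63 on the log2 scale, Amdhd1, the third, had 175, 126 and 37.5 in ApcMyc livers, against 1546, 1489 and 1350.3 in Myc livers (-3.70, SE 0.401), and Ftcd, which hands the formimino group to folate, fell by 1.15. Hdc, which turns histidine into histamine instead of breaking it down, was not called (0.29, adjusted p = 0.536). In all 4 genes that fell, every ApcMyc array lay below every Myc array, beside no overlap in 1447 of 2176 named genes.

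Of 9 measured genes of glutamine and ammonium handling 5 rose and 2 fell. The risers were Glul, Rhbg, Slc1a2, Slc1a5, a glutamine carrier with 126, 158 and 213 in ApcMyc livers, against 50.4, 42 and 59.1 in Myc livers (1.43), and Slc1a4, a carrier of small neutral amino acids with 169.8, 136 and 203 in ApcMyc livers, against 57.8, 62.1 and 63.2 in Myc livers (1.25). Gls2, the liver glutaminase that splits glutamine in periportal cells, had 259.8, 188 and 109.7 in ApcMyc livers, against 2997, 3932 and 2539 in Myc livers (-4.02, SE 0.42). Slc38a4, an amino acid carrier of hepatocytes, fell by 0.87. The enzyme that makes glutamine and the one that splits it therefore moved in opposite directions, with no overlap in either.

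Other amino acid enzymes fell. Aspg, an asparaginase, had 25.5, 17.5 and 49.2 in ApcMyc livers, against 1041, 602 and 865 in Myc livers (-4.21, adjusted p = 2.35e-06). Sds, serine dehydratase, had 213, 355 and 65.8 in ApcMyc livers, against 3368, 3287 and 2807 in Myc livers (-4.05, SE 0.483), and its relative Sdsl had 28.5, 4.6 and 9.6 in ApcMyc livers, against 79.6, 102 and 87.6 in Myc livers (-1.88). Among 10 genes of serine, glycine and one-carbon metabolism 5 fell, the others being Gldc of glycine cleavage (-1.99), Pipox (-1.11), a sarcosine and pipecolate oxidase, and Sardh (-1.19), sarcosine dehydrogenase. The 1 that rose was Mat2a, the S-adenosylmethionine synthetase of tissues other than adult liver, at 2006, 2119 and 1714 in ApcMyc livers, against 489, 396 and 347 in Myc livers (2.21, adjusted p = 0.000172). Of 4 urea and proline genes 3 fell, with Otc of the urea cycle at 1580.5, 948 and 1145 in ApcMyc livers, against 5663, 5700.4 and 4867 in Myc livers (-2.16) and Prodh2, which breaks down hydroxyproline, at -1.82. Arg1, the arginase of liver, had 2658, 2311 and 1291 in ApcMyc livers, against 6706, 7205 and 7213 in Myc livers (-1.81, adjusted p = 0.0258). The call of Arg1 was lost when ApcMyc replicate 2 or 3 or any of the Myc replicates was left out, and on the deposited scores (highest adjusted p = 0.0989). In tryptophan breakdown Afmid (-1.95) and Kynu (-1.12) fell, as did Bckdha, a subunit of the branched-chain keto acid dehydrogenase (-1.14, adjusted p = 0.00115).

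**Figure D2:**
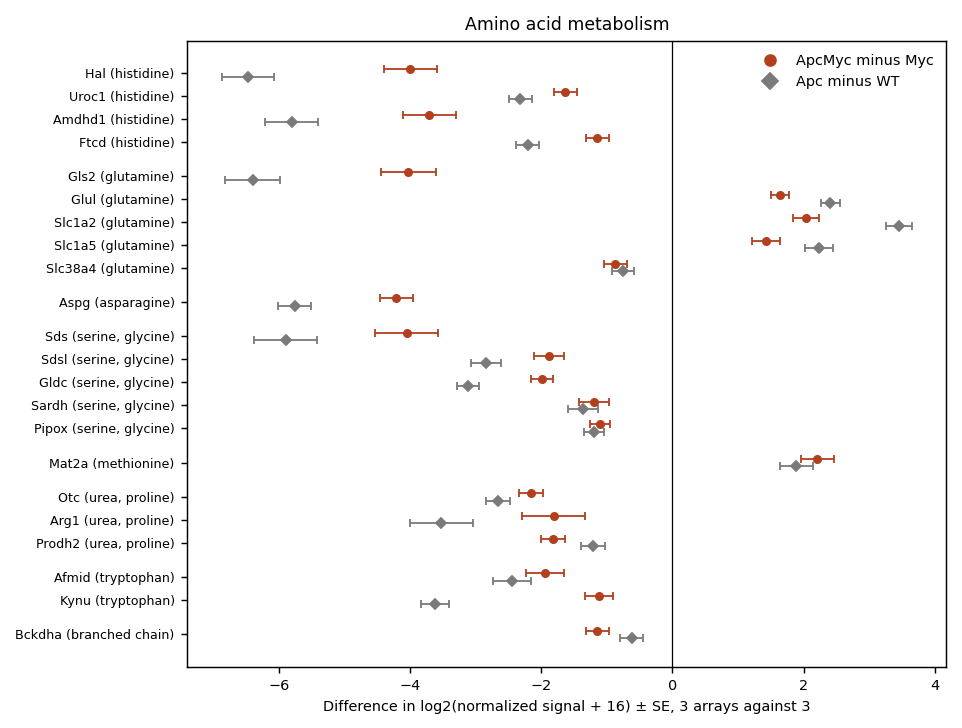
Differences in log2(normalized signal + 16) with their SE for 22 genes of amino acid metabolism, ApcMyc minus Myc as circles and Apc minus WT as diamonds, 3 arrays against 3 in each. Glul, the Slc1a carriers and Mat2a lie right of 0 in both comparisons and the other genes left of it.

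Lipid, glucose and bile acid genes moved in both directions. Pdk4, the kinase that holds glucose carbon out of the citric acid cycle, had 755, 698 and 914 in ApcMyc livers, against 72.9, 51.2 and 79.2 in Myc livers (3.27, adjusted p = 0.000104). Of 13 genes of glucose metabolism 4 rose and 3 fell, beside 23.0% and 21.6% of all named genes, with a median of 0.20. Khk, ketohexokinase, had 922, 857 and 1117 in ApcMyc livers, against 2619.9, 2429 and 2345 in Myc livers (-1.35), Pklr, the liver pyruvate kinase, fell by 1.15 and Pck1, of glucose synthesis, fell by 1.05. The other risers were Pfkfb1 (1.27), Ldhb (0.998) and Pgd (0.99), which act on fructose bisphosphate levels, lactate and the pentose phosphate pathway. In lipid handling Mogat2, which makes diacylglycerol, had 785, 834 and 784 in ApcMyc livers, against 25.1, 14.7 and 84.4 in Myc livers (4.02, SE 0.358). Elovl7, a fatty acid elongase, had 292, 439 and 337 in ApcMyc livers, against 40, 25.6 and 6.9 in Myc livers (3.28).

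Fabp1, the abundant fatty acid binding protein of hepatocytes, had 3977, 2809.6 and 7085 in ApcMyc livers, against 15458, 13764 and 14173 in Myc livers (-1.75, adjusted p = 0.00144). Acot4, a thioesterase that releases fatty acids from coenzyme A, rose (1.09, adjusted p = 0.00116). Among 15 genes of fatty acid oxidation there were 6 risers and 3 fallers, beside 23.0% and 21.6% of all named genes. The median was 0.79, and 3 rose with pseudocount 1 or on the deposited scores.

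In bile acid metabolism 7 of 12 genes fell and 3 rose, and the 3 were all exporters or carriers at the cell membrane. Cyp8b1, which sets the ratio of cholic to chenodeoxycholic acid, had 38.2, 44.1 and 24.6 in ApcMyc livers, against 1739, 3027 and 781 in Myc livers (-4.99, SE 0.379). Cyp7b1, of the alternative synthesis route, had 579, 1379.9 and 715 in ApcMyc livers, against 4728, 5781 and 4634 in Myc livers (-2.57), Baat, which conjugates bile acids, fell by 0.85, and Slc10a1, the main uptake carrier, had 2775, 2916 and 1946 in ApcMyc livers, against 6915, 6625 and 6546 in Myc livers (-1.41). The risers were Slco1a4 with 4663, 4438 and 3432 in ApcMyc livers, against 653, 745 and 942 in Myc livers (2.40), Abcc2, the export pump for conjugates into bile (1.57), and Abcc4, a pump back to blood (2.16).

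Of 20 measured cytochromes P450 10 fell and 1 rose, with a median of -1.04. The 1 riser was Cyp2c55, at 3705, 1442 and 1834 in ApcMyc livers, against 345, 263 and 118 in Myc livers (3.18, adjusted p = 0.000606), and among those that fell were Cyp3a13 (-1.39) and Cyp2j5 (-1.41). Of 14 conjugating enzymes 6 rose, including Gstm3 (1.49), Gstm6 (1.79) and Nat8f5 (2.69), and 6 fell, including the sulfotransferases Sult2a8 (-1.89) and Sult5a1 (-1.93), while another sulfotransferase, Sult1e1, is among the 6 that rose. Of 10 genes of redox defence 6 rose and 2 fell, beside 23.0% and 21.6% of all named genes. The 2 that fell were Osgin1 and Prdx4. Over the settings tried, between 4 and 6 rose and between 0 and 2 fell. Srxn1, which repairs peroxiredoxins, had 2576, 2864 and 4082 in ApcMyc livers, against 404, 518 and 467 in Myc livers (2.71), Glrx, glutaredoxin, had 3349.5, 1994 and 2749.5 in ApcMyc livers, against 529.6, 512 and 487 in Myc livers (2.34), and Prdx3, the mitochondrial peroxiredoxin, had 6189.8, 6157 and 6222 in ApcMyc livers, against 3132, 2493 and 2329 in Myc livers (1.23). All animals received beta-naphthoflavone, an inducer of such enzymes: of its 3 measured target genes Nqo1 rose (1.62, adjusted p = 0.0123, and 0.0528 without ApcMyc replicate 2), while Cyp1a1 (0.41) and Cyp1b1 (1.11) were not called.

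The secreted liver proteins were covered by several lists. Of 16 measured coagulation and complement genes 12 fell and 1 rose, with a median of -0.87. C9, of the membrane attack complex, had 1669.6, 1419.9 and 1382 in ApcMyc livers, against 6767, 7292 and 6849.9 in Myc livers (-2.22, adjusted p = 6.04e-06). The C8 subunits of that complex fell too, namely C8b (-2.55), C8a (-1.44) and C8g (-0.89), and so did Cd59a, its membrane inhibitor (-1.32). C6 and Hc, which encode complement components C6 and C5, were not called (-0.55 and 0.10). The 1 riser was Plat, tissue plasminogen activator, at 320.0, 228 and 182 in ApcMyc livers, against 28.3, 47.4 and 40 in Myc livers (2.23, adjusted p = 0.00254). Of 10 serpins 7 fell and none rose. Serpina12 had 30.2, 24.7 and 8.5 in ApcMyc livers, against 311, 750.4 and 597 in Myc livers (-3.90), with a second probe set at -0.16 that was not called, and Serpinf1 1469, 1305 and 2072 in ApcMyc livers, against 5607, 5729 and 5388 in Myc livers (-1.80). Among 7 acute phase genes 5 fell, led by Apcs, serum amyloid P, at 827, 1086 and 909.7 in ApcMyc livers, against 5159, 5889 and 7511 in Myc livers (-2.69). Of 6 apolipoproteins and carriers 1 rose and 2 fell, beside 23.0% and 21.6% of all named genes, with a median of -0.37. Apoa1, the main protein of HDL, was not called (-0.35, adjusted p = 0.121), but was called lower in 5 of 17 other settings.

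Genes that differ between the sexes also moved. Of 17 measured genes that are higher in male liver 12 fell and none rose, with a median of -2.05. Hsd3b5, a steroid enzyme, had the largest fall of all named genes on that scale, with 1.5, 1.1 and 4.3 in ApcMyc livers, against 940.1, 655 and 1215 in Myc livers (-5.66, adjusted p = 1.99e-06). Mup3, of the major urinary proteins, whose probes may also see its relatives, had 282, 451 and 264 in ApcMyc livers, against 4341, 4565 and 5527 in Myc livers (-3.82). Egfr, the EGF receptor, had 802, 1331 and 707 in ApcMyc livers, against 4234, 4184 and 3552 in Myc livers (-2.11). Of 12 genes higher in female liver 6 rose and none fell, with a median of 1.16. Akr1b7, an aldo-keto reductase, had 1134, 618 and 671 in ApcMyc livers, against 57.5, 43.9 and 64.3 in Myc livers (3.49), Atp6v0d2, a proton pump subunit, had 869.7, 1427 and 529.7 in ApcMyc livers, against 113, 114 and 72.8 in Myc livers (2.96), and Trim24, a coregulator of nuclear receptors, rose by 1.48. The sex of the mice is not in the labels, and its part in these values was not tested. The lists share members: C8a, C8b and C9 stand in the male list as well as among the complement genes, and Prom1 in the female list as well as among the progenitor genes.

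Of 5 measured genes of growth hormone and IGF signalling 1 rose and 1 fell, beside 23.0% and 21.6% of all named genes, with a median of 0.08. Igfbp2, an IGF binding protein, had 712, 198 and 680.1 in ApcMyc livers, against 5781, 6119 and 5682 in Myc livers (-3.62), whereas its relative Igfbp1 had 12755, 11857 and 9206 in ApcMyc livers, against 1649.9, 3255 and 3013 in Myc livers (2.13). Dio1, the deiodinase that activates thyroid hormone, had 56.6, 50.8 and 42.1 in ApcMyc livers, against 1567, 1021 and 1152 in Myc livers (-4.24, adjusted p = 2.35e-06). Gas1, a hedgehog co-receptor that restrains growth, had 16.9, 21.7 and 22 in ApcMyc livers, against 298, 368 and 388 in Myc livers (-3.34, adjusted p = 4.63e-06). Rgs16, a regulator of G-protein signalling, had 47, 43.8 and 146 in ApcMyc livers, against 676, 624 and 1357 in Myc livers (-3.32), and Aqp8, a water channel, had 45.7, 43.3 and 214 in ApcMyc livers, against 1457, 929 and 804 in Myc livers (-3.47). In Rgs16 and Aqp8 ApcMyc replicate 3 was the highest of its group and still below every Myc array. Obp2a, a lipocalin, had 19.1, 2.7 and 4.2 in ApcMyc livers, against 110.2, 674 and 157 in Myc livers (-3.38, adjusted p = 0.00272).

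Of 8 measured fetal and progenitor genes 4 rose, namely Afp, Meg3, Prom1 and Plat, and none fell by its brightest probe set. Fgfr3, another member, had 2 probe sets with differences of -0.82 and -0.47. Of these 1 was called lower, but not the one that stands for the gene. Afp, the fetal counterpart of albumin, had 1790.3, 985 and 1201 in ApcMyc livers, against 63.1, 55.6 and 33.6 in Myc livers (4.31, adjusted p = 0.000192). Meg3, an imprinted noncoding RNA, had 1001, 2370.0 and 543 in ApcMyc livers, against 53.8, 52.5 and 91.9 in Myc livers (3.79), and 3 of its 5 probe sets were called; the differences over the 5 lay between 0.94 and 4.34. Airn, the imprinted noncoding RNA of the Igf2r locus, had 196, 213 and 153 in ApcMyc livers, against 7, 2.5 and 9.4 in Myc livers (3.19). Prom1, a surface protein of progenitor and bile duct cells, had 729, 453 and 308 in ApcMyc livers, against 29.7, 31.7 and 29.3 in Myc livers (3.39). Ly6d, a surface protein, was not called: its signals were 55.3, 38.4 and 933 in ApcMyc livers, against 59.8, 43.3 and 39 in Myc livers, so 1 ApcMyc array stood far above all others. Without ApcMyc replicate 3 its difference was -0.01.

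Of 13 measured genes of the cytoskeleton and cell junctions 4 rose and 1 fell, beside 23.0% and 21.6% of all named genes. Their median was 0.21. The risers were Tuba8, Tubb2a, Tpm1 and Sema3b, and Cldn1 fell. Tuba8, an alpha-tubulin, had 1201, 1109.8 and 939.5 in ApcMyc livers, against 75.3, 95.6 and 98.7 in Myc livers (3.38, adjusted p = 1.39e-05), and Tubb2a, a beta-tubulin, had 2261, 3006 and 3064 in ApcMyc livers, against 377, 569 and 263 in Myc livers (2.79). Kif26b, a kinesin outside that list, rose by 1.60 and Tpm1, a tropomyosin, by 1.46, while Cldn1, a tight junction protein, fell by 1.19. Sema3b, a semaphorin, had 164, 247 and 190.1 in ApcMyc livers, against 3.1, 3.8 and 1.3 in Myc livers (3.51); its Myc signals are close to the lowest value of the arrays. Car2, carbonic anhydrase 2, had 1926, 2068 and 1378 in ApcMyc livers, against 158, 154 and 210.2 in Myc livers (3.24, adjusted p = 2.48e-05). AW124722, a transcript of unassigned role, had 1022, 924 and 932 in ApcMyc livers, against 85, 37.6 and 71.5 in Myc livers (3.64). D17H6S56E-5, a transcript listed under a locus name, had 1943, 312 and 1891 in ApcMyc livers, against 78.1, 67.6 and 74.4 in Myc livers (3.58, adjusted p = 0.00272), so ApcMyc replicate 2 lay well below the other ApcMyc arrays and above the Myc arrays. Sult1e1, the estrogen sulfotransferase, had 409, 231 and 32.4 in ApcMyc livers, against 2, 1.9 and 1 in Myc livers (3.28, adjusted p = 0.0486), and its call was lost without ApcMyc replicate 1 or 2 or any Myc replicate (highest adjusted p = 0.172).

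**Figure D3:**
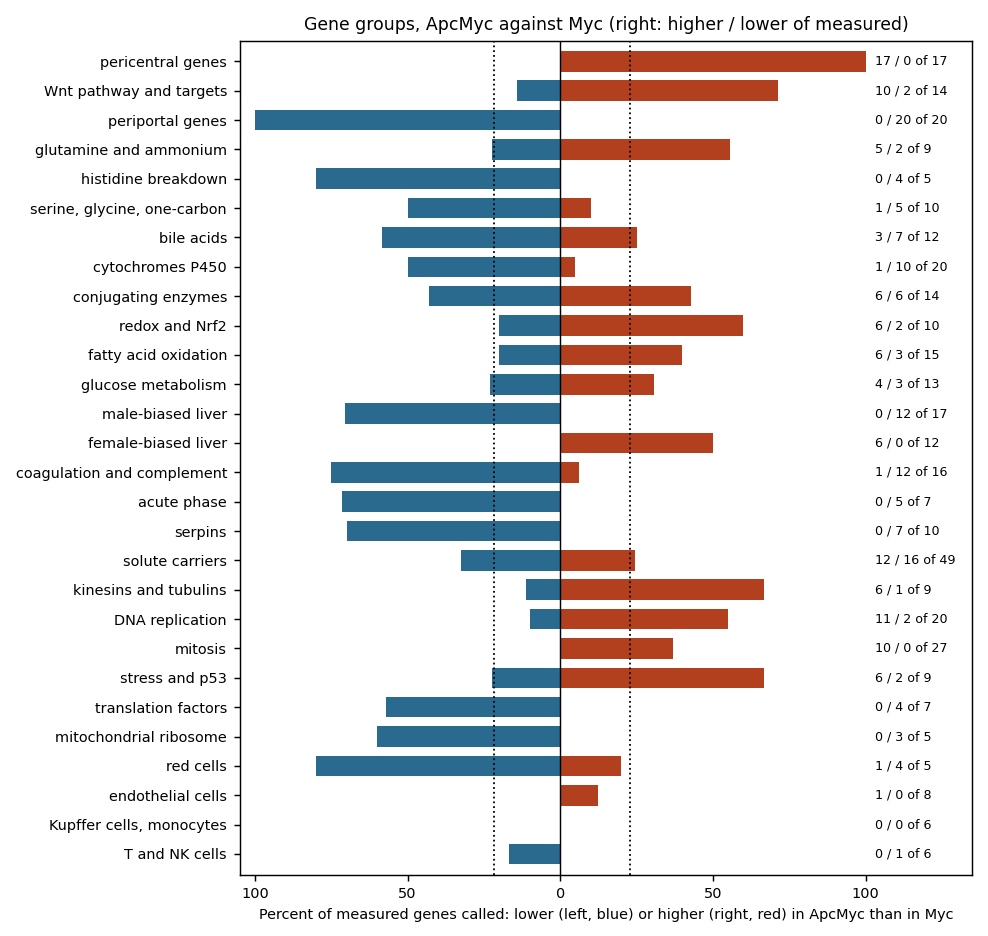
Share of the measured genes of 28 gene groups called lower (left) or higher (right) in ApcMyc than in Myc, with the counts at the right edge and dotted lines at the shares over all named genes, 21.6% lower and 23.0% higher. Pericentral and periportal genes stand at 17 of 17 higher and 20 of 20 lower, and 0 of 6 Kupffer cell genes were called; groups share members and were chosen with earlier results known.

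Cell cycle genes rose in part, unevenly among the ApcMyc arrays. Ccnd1, the cyclin that starts G1 and a Wnt target, had 2668, 1378 and 2736 in ApcMyc livers, against 780.5, 362 and 841 in Myc livers (1.77, adjusted p = 0.011); Myc replicate 2 and ApcMyc replicate 2 were the lowest of their groups. Cdkn1a, the p53-induced inhibitor of cyclin kinases, had 452, 209 and 442 in ApcMyc livers, against 71.8, 84.2 and 96.5 in Myc livers (1.87, adjusted p = 0.0101), and lost its call with pseudocount 1 and on the deposited scores (highest adjusted p = 0.146). Rbl1, a relative of the retinoblastoma protein, rose by 1.45 (adjusted p = 0.00728). Of 20 genes of DNA replication 11 rose and 2 fell, with a median of 1.25. Mcm6, part of the helicase that opens DNA for copying, had 832, 226 and 212 in ApcMyc livers, against 71.6, 17.6 and 65.7 in Myc livers (2.53, adjusted p = 0.00684). Gins2, which joins that helicase, had 181, 44.7 and 96.9 in ApcMyc livers, against 22.9, 9.8 and 8.9 in Myc livers (1.92). Rpa1, which coats single-stranded DNA, was higher in all 3 ApcMyc arrays, at 1192, 850.2 and 743 in ApcMyc livers, against 403, 388 and 379 in Myc livers (1.19). The 2 that fell were Mcm10, an initiation factor, at 226, 233 and 193 in ApcMyc livers, against 834, 1064 and 871 in Myc livers (-2.01, adjusted p = 0.000113), and Pola2, a primase-polymerase subunit, at 7.4, 14 and 8.1 in ApcMyc livers, against 49.5, 41.7 and 37.8 in Myc livers (-1.20, adjusted p = 0.0396), whose call was lost without any 1 of the 6 arrays.

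Mitotic genes separated the ApcMyc arrays from each other. Of 27 measured mitotic genes 10 rose and none fell, with a median of 1.26. Pbk, a mitotic kinase, had 527, 76 and 251 in ApcMyc livers, against 27.8, 11.8 and 25.7 in Myc livers (2.68, adjusted p = 0.00365). Cep55, of the final cut between daughter cells, had 190.2, 47 and 150.0 in ApcMyc livers, against 26.1, 18.5 and 21 in Myc livers (1.77, adjusted p = 0.00915). Cdk1, the kinase that drives entry into mitosis, had 458, 95.7 and 266 in ApcMyc livers, against 69.2, 38.4 and 55.1 in Myc livers (1.83, adjusted p = 0.0193). ApcMyc replicate 2 was the lowest ApcMyc array in all 3 genes. Over the 27 genes the median distance from the Myc mean was 1.85 in ApcMyc replicate 1, 0.26 in replicate 2 and 1.44 in replicate 3. In ApcMyc replicates 1, 2 and 3 the number of genes above the highest Myc array was 25, 12 and 27. For DNA replication the medians were 2.03, 0.90 and 0.96, with 17, 18 and 17 of 20 genes above the highest Myc array. ApcMyc replicate 1 had the highest median in both groups of genes.

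The counts depended on single arrays. Without ApcMyc replicate 2 the number of mitotic genes that rose was 17, and it was 2 and 3 without ApcMyc replicates 1 and 3. Without Myc replicates 1, 2 and 3 it was 3, 4 and 5. For the replication genes the count was 5 without ApcMyc replicate 1, 12 without replicate 2 and 11 without replicate 3. With a Myc array left out it was 7, 6 or 4 for Myc replicate 1, 2 or 3. On the deposited scores 4 mitotic and 6 replication genes rose. Cdk1 lost its call without ApcMyc replicate 1 or 3 or Myc replicate 2 or 3, and Pbk and Cep55 kept theirs in all settings tried for single genes. Those settings did not include leaving out a single Apc or WT array.

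**Figure D4:**
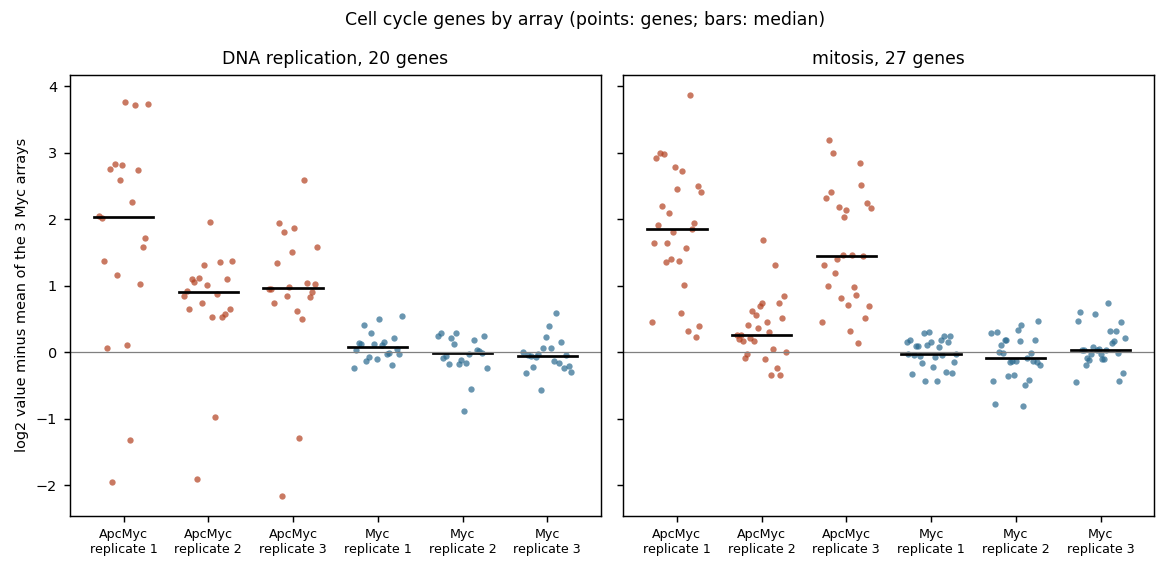
Distance of each array's log2 value from the mean of the 3 Myc arrays, for 20 DNA replication genes and 27 mitotic genes, ApcMyc arrays left and Myc arrays right, with 1 point per gene and the median as a bar. The mitotic median of ApcMyc replicate 2 is 0.26, against 1.85 and 1.44 in the other ApcMyc arrays, while the Myc medians lie between -0.08 and 0.03.

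Of 9 measured genes of stress and p53 responses 6 rose and 2 fell. Jun, part of the AP-1 factor, had 336, 447 and 598 in ApcMyc livers, against 113, 122 and 174 in Myc livers (1.63, adjusted p = 0.0051), Atf3 had 176, 208 and 280.2 in ApcMyc livers, against 56.1, 47 and 50.4 in Myc livers (1.80) and Ier3, an immediate early gene, had 132, 160.2 and 99.9 in ApcMyc livers, against 37.5, 56.4 and 44.1 in Myc livers (1.23). The 2 that fell were Xbp1, a stress factor of the endoplasmic reticulum, and Herpud1. Xbp1 had 1282, 2024 and 1543 in ApcMyc livers, against 4361, 3168 and 3121 in Myc livers (-1.13, adjusted p = 0.00246), and Herpud1, of protein disposal there, had 1379.5, 1619 and 1691 in ApcMyc livers, against 4157, 3759.9 and 4966 in Myc livers (-1.44). With pseudocount 1 and on the deposited scores 3 of the 9 rose. Cebpa, a factor that maintains adult hepatocytes, had 1246, 1408 and 1694 in ApcMyc livers, against 4093, 4281 and 3910.0 in Myc livers (-1.50, adjusted p = 0.00022), and the glucocorticoid receptor Nr3c1 fell by 0.90.

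Apart from the red cell genes given below, few markers of other liver cells passed the test, beside 44.6% of all named genes and 13.4% of all probe sets. The lists are short, so these counts do not show that those cells were unchanged. Of 5 stellate cell and fibroblast genes 1 fell and none rose. Of 2 bile duct genes 1 rose, which was Prom1, and of 2 B and plasma cell genes none was called. Of 6 Kupffer cell and monocyte genes none was called by limma, with 2 at an unadjusted p under 0.05 and 1 or 2 called higher in some other settings, and their summed signals were 3052, 2365 and 3379 in ApcMyc livers, against 2911, 2242 and 2552 in Myc livers. Cd68, a macrophage marker, had 409, 389.9 and 611 in ApcMyc livers, against 288, 254 and 258 in Myc livers (0.75, adjusted p = 0.0798) and Lyz2, lysozyme, 1382, 968 and 1400.4 in ApcMyc livers, against 1439, 1242 and 1369 in Myc livers. Of 8 endothelial genes 1 rose, Lyve1 of the sinusoids, with 644, 605 and 504 in ApcMyc livers, against 164, 169.9 and 152 in Myc livers (1.75, adjusted p = 0.00272), while the pan-endothelial genes Pecam1 (-0.41) and Cdh5 (0.10) were not called. Of 6 T and NK cell genes 1 fell, Zap70 (-0.85), while the median of the 6 was 0.52 and up to 2 were called higher in some other settings. Of 4 neutrophil genes none was called by limma, with 2 at an unadjusted p under 0.05 and 1 called higher in some other settings. In ApcMyc replicate 3 the summed T and NK signal was 862, against 533 and 429 in the other ApcMyc arrays and 377, 418 and 416 in Myc arrays. The interferon gene Gbp2 was highest in the same array (343, 391 and 1128 in ApcMyc livers, against 355, 312 and 134 in Myc livers) and was not called. H2-D1, a class I histocompatibility gene, rose in all 3 ApcMyc arrays, with 464, 410.1 and 773 in ApcMyc livers, against 135, 142 and 123 in Myc livers (1.87, adjusted p = 0.000435).

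Of 5 red cell genes 4 fell and 1 rose, and without Myc replicate 2 the number that fell was 2. Klf1, the transcription factor of red cell precursors, had 40.5, 49 and 35.2 in ApcMyc livers, against 133, 107 and 140.3 in Myc livers (-1.31), and Alas2 (-1.06), Car1 (-1.20) and Slc4a1 (-1.003) fell. Alas2 lost its call without Myc replicate 2 (adjusted p = 0.0532), and Slc4a1 without ApcMyc replicate 1 or 2 or any Myc replicate. Car2, which is also a red cell gene, rose as given above and is known in the liver from pericentral hepatocytes too. Of 3 hepatocyte genes in the lists Apob and Serpina1a fell and Apoa1 was not called, though it was called lower in 5 of 17 other settings. The part of cell composition in the results was not tested.

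The response to Apc loss was set beside that of Myc-intact liver, Apc minus WT, which shares no array with it. Both differences came from the same fit, with normalization and estimate of spread shared by all 12 arrays, so their calls are not separate tests. In that comparison 15.6% of probe sets were called. Of the 971 named genes called in ApcMyc against Myc, 654 were called in the same direction in Apc against WT. A further 3 were called in the opposite direction and 314 not called there. Most names come from a list chosen for a change between ApcMyc and WT. That choice shares the ApcMyc arrays with 1 comparison and the WT arrays with the other, so the agreement in direction is partly built in. The difference between the responses was tested itself, as an interaction, and 744 of 32115 probe sets passed (2.32%). That count depended on single arrays: it lay between 159 and 929 when 1 of the 12 was left out, and it was 321 without ApcMyc replicate 1, 165 without ApcMyc replicate 2, 180, 199 or 190 without Myc replicate 1, 2 or 3, 175 without Apc replicate 2, and 159 and 361 without WT replicates 2 and 3. Among the 2176 named genes 129 passed it, 64 with the larger change in Myc-deleted liver and 65 with the larger change in Myc-intact liver. Of the 129, 42 were not called in ApcMyc against Myc and 87 were. The remaining 459 risers and 425 fallers in ApcMyc against Myc did not pass, which does not show equal responses. The ApcMyc and Myc arrays share a title style that the Apc and WT arrays lack, so Myc genotype and whatever the title style stands for cannot be told apart here.

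The periportal and pericentral blocks moved in both settings. The median of the 20 periportal genes was -1.93 with Myc deleted and -2.93 with Myc intact, and that of the 17 pericentral genes was 1.79 and 2.41. In mitosis the medians were 1.26 and 2.73, with 10 and 23 of 27 genes called up. The interaction passed in 1 of the 27, beside 129 of the 2176 named genes and 2.32% of all probe sets. A difference between the responses was therefore not shown for the mitotic genes as a group. The count of 10 lay between 2 and 17 when 1 ApcMyc or Myc array was left out, as given above. Beside the same shares over named genes and all probe sets, 4 of the 20 periportal genes and 3 of the 17 pericentral genes passed the interaction. The 4 periportal genes were Hal, Gldc, Ftcd and Pigr, whose interaction calls were lost in 13, 13, 14 and 15 of 23 settings. In translation factors 4 of 7 fell here, with a median of -0.82, and 1 fell and 1 rose in Apc against WT, with a median of 0.26. Eif2s2, a subunit of the initiator tRNA carrier, had 449, 317 and 681 in ApcMyc livers, against 1207, 1217 and 1114 in Myc livers (-1.33) and Eif3c, of the scaffold that binds the small ribosomal subunit, had 141, 134 and 105 in ApcMyc livers, against 266, 323 and 253 in Myc livers (-1.06). Their differences in Apc minus WT were 0.18 and 0.36, and the interactions were -1.51 (adjusted p = 0.0328) and -1.42 (adjusted p = 0.0341); both calls were lost in most settings that left out an array. Of 5 mitochondrial ribosome genes 3 fell, namely Mrpl38 (-0.94), Mrpl52 (-0.73) and Mrpl47 (-0.68, lost without Myc replicate 1 or 2).

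Several genes changed with Apc loss in Myc-deleted liver and were near 0 with Myc intact, with the interaction past its test. Apob, the structural protein of VLDL, had 1885, 2647 and 2060.1 in ApcMyc livers, against 8749, 8874 and 7430.2 in Myc livers (-1.93), and 9934, 10381 and 9605 in Apc livers, against 8640.5, 9906 and 9843 in WT livers (0.08), an interaction of -2.01 (SE 0.229, adjusted p = 0.00439). On the deposited scores this interaction was not called (adjusted p = 0.0799). Tcf7l2 had 79.9, 64.4 and 94.6 in Apc livers, against 126, 126 and 75.4 in WT livers (-0.37), beside its rise above, an interaction of 2.06 (SE 0.291, adjusted p = 0.00924). Celf2, an RNA-binding splicing factor, had 349.8, 375 and 382 in ApcMyc livers, against 49.9, 52.7 and 57.1 in Myc livers (2.48), and 31.3, 50.4 and 95.4 in Apc livers, against 65.5, 77.4 and 43.3 in WT livers (-0.12), an interaction of 2.60 (SE 0.375, adjusted p = 0.0103). Ccnt2, a cyclin of transcription elongation, had 664, 714 and 515 in ApcMyc livers, against 82.3, 173 and 136 in Myc livers (2.18), and 142, 122 and 163 in Apc livers, against 148, 234 and 175 in WT livers (-0.33), an interaction of 2.51 (SE 0.348, adjusted p = 0.00827).

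Ap2b1, an adaptor of clathrin-coated vesicles, had 108, 92.5 and 136 in ApcMyc livers, against 558, 590.0 and 524 in Myc livers (-2.18), and 384, 365 and 463 in Apc livers, against 426, 344 and 355 in WT livers (0.10), the smallest adjusted p of the interaction among named genes (0.00283). Its other probe set had a difference of 0.50 in ApcMyc minus Myc and was not called, so this holds for 1 of 2 probe sets. Ppp4r3a, a phosphatase subunit (1.83 and -0.46 in Myc-deleted and Myc-intact liver), and Jkamp, a membrane protein that binds the kinase JNK (1.94 and 0.43), also passed, as did 6330417A16Rik (1.87 and 0.05). In the reverse case the change was larger with Myc intact: Kynu fell by 1.12 here and had -3.62 in Apc minus WT, and Ubtf, the factor of rRNA transcription, fell by 1.07 against -2.53. Ubtf had 4204, 4157 and 3992 in ApcMyc livers, against 8603, 8430.4 and 9011 in Myc livers.

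The genes called in opposite directions in the 2 comparisons were Pik3cd, a lipid kinase subunit of blood cells (1.04 here and -0.69 in Apc minus WT), Malat1, a nuclear noncoding RNA (0.98 and -0.78), and Lin7b, a scaffold protein (1.04 and -0.89). All 3 rose with Myc deleted, and Pik3cd had 2548, 3075 and 3107 in ApcMyc livers, against 1165, 1386 and 1692 in Myc livers. A further probe set of Malat1 had -0.64 and was not called. Malat1 and Lin7b lost their call in ApcMyc against Myc without 5 and 4 single arrays, and Pik3cd with median scaling (adjusted p = 0.0545). The large falls were weaker than in Myc-intact liver for Hal (interaction 2.48), Aspg (1.55) and Dio1 (1.58), and stronger for Mup3 (-2.22) and Gas1 (-1.87), the last with 93.9, 45.6 and 65.4 in Apc livers, against 246, 224 and 168 in WT livers. The interactions of Hal, Aspg and Dio1 had adjusted p-values of 0.0424, 0.0432 and 0.0433 and were lost without most single arrays.

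**Figure D5:**
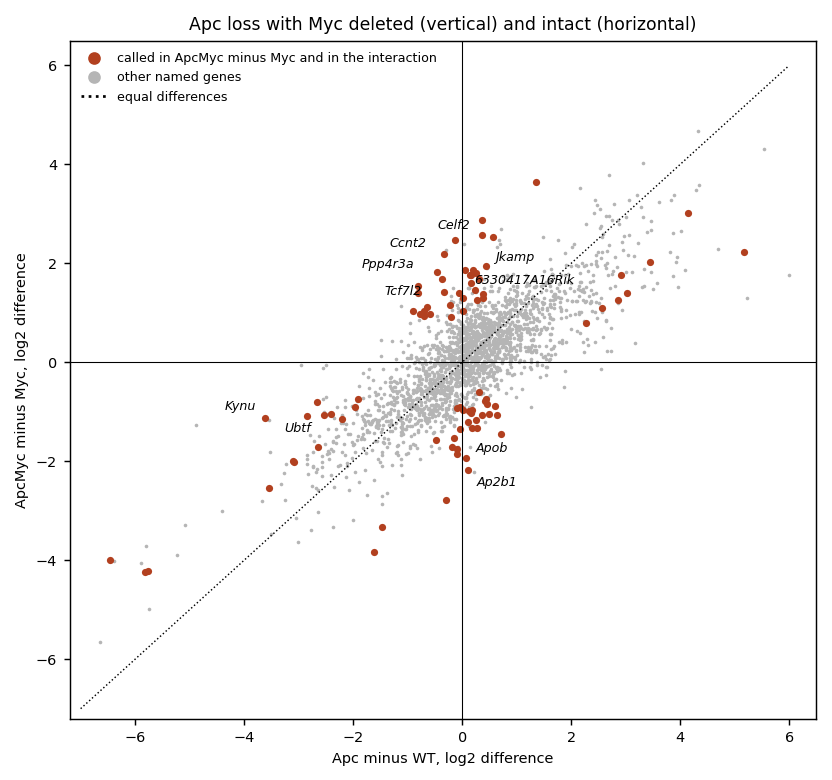
Log2 differences of the 2176 named genes, ApcMyc minus Myc on the vertical axis and Apc minus WT on the horizontal axis, with 87 genes called both in ApcMyc minus Myc and in the interaction in red and the dotted line at equal differences. Apob and Ap2b1 lie near 0 on the horizontal axis and at -1.93 and -2.18 on the vertical one, with Celf2, Ccnt2 and Tcf7l2 above the horizontal line.

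Probe sets of 1 gene did not always give the same call. Of 269 genes with several probe sets, all probe sets were called up in 57 and down in 63, none was called in 67, and only some were called, in 1 direction, in 80. In 18 of these 80 another probe set had the opposite sign without a call. Among the genes named above, Afp, Slc1a2, Uroc1, Rbl1, Cep55, Gins2, Tnfrsf19 and Kynu each had a further probe set that was not called, with the same sign. The 2 genes with calls in both directions were Rora, a nuclear receptor of the clock (1.22 for its brighter probe set and -1.21 for the other), and Snrnp48, of the minor spliceosome (-0.62 and 1.63). For these no direction of the gene can be given from the arrays.

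Among the 29598 tested probe sets without a name, 1538 rose and 1594 fell. The largest rise on the log2(signal + 16) scale was that of 1455869_at, with 4729, 675 and 4142 in ApcMyc livers, against 59.7, 64.7 and 47.1 in Myc livers (5.04, adjusted p = 0.0075). Its difference in Apc minus WT was -0.02, and the interaction did not pass (adjusted p = 0.0928), with ApcMyc replicate 2 far below its group. The next was 1452905_at, with 575, 1720 and 287 in ApcMyc livers, against 15.3, 15.8 and 41.3 in Myc livers (4.14). The largest falls were 1426037_a_at (-3.70) and 1431240_at (-3.57). Probe set 1431240_at had 1.7, 15.6 and 6.1 in ApcMyc livers, against 156, 255 and 434 in Myc livers.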

How the data were processed

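Mouse liver RNA was measured on 1-colour arrays, 3 in each of 4 groups, and samples were grouped by the genotype in the labels. The deposited values are scores: per the values themselves, the log signal of an array less its mean and divided by its SD. How the authors made the signals is not given in the sources used here. Signals were recovered from the grid of 0.1 on which the low ones lie (floor 1, 20 iterations, every signal under 1000 within 0.01 of the grid), quantile normalized, and tested as log2(signal + 16) with limma 3.58.1 in R 4.3.3 (4 group means, moderated variance, Benjamini-Hochberg over 32115 probe sets), with the same fit for the interaction. The step was tested on simulated data. Names come from the authors' deposited lists, which per the file headers are SAM analyses on log scale data: 1978 symbols stood in the RefSeq table (GRCm38.p6, used for names and promoters), 376 were updated and 163 kept as listed, while 230 probe sets had no symbol and 204 several. The brightest probe set stands for a gene. The text names genes from these sets: the 15 largest called rises and falls, up to 6 members of each of 58 lists by p, called members against their list's majority, both-direction genes and the 10 strongest interactions; a few further list members (such as C6 and Hc) were chosen after their values were seen. Members and lists were chosen with earlier results of these data known. Alternatives were other scalings, the scores as deposited, pseudocounts 1 and 64, a variance trend, array weights, a filter on dim probe sets, averaging the probe sets of each gene and leaving out each array. Single-gene calls in ApcMyc against Myc were followed without each ApcMyc or Myc array, and not without single Apc or WT arrays. The number of arrays limits the precision.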

Additional observations from a re-analysis of the deposited data

Results flagged for a closer look

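The response to Apc loss differed between Myc-deleted and Myc-intact liver, by the test of the difference itself, in 744 probe sets and in the genes below, each value being (ApcMyc minus Myc) minus (Apc minus WT) on the log2 scale. Myc genotype and array title style cannot be told apart in these values. In 10 of 33 such genes the call held in every setting tried: Ap2b1 (-2.28), Tcf7l2 (2.06), Celf2 (2.60), Ccnt2 (2.51), Ppp4r3a (2.29), Jkamp (1.51), 6330417A16Rik (1.81), Ubtf (1.46), Kynu (2.50) and Gas1 (-1.87).

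In the other 23 genes the call was lost in at least 1 setting. Of up to 23 settings each, it was lost in 1 for Mup3, Apob, Acot4 and Slc1a4. It was lost in 17 for Aspg, 15 for Pigr and Fabp1, and 14 for Dio1, Ftcd and Eif3c. The number was 13 for Hal, Gldc and Eif2s2, 12 for Rhbg, and 11 for Malat1, Mrpl52 and H2-D1. For the remaining genes it lay between 2 and 8. Among genes that fell with Apc loss in Myc-deleted liver, the values were 2.48 for Hal, 1.58 for Dio1, 1.55 for Aspg, 1.12 for Gldc, 1.06 for Ftcd and 0.92 for Pigr, whose falls were smaller than in Myc-intact liver. They were -2.22 for Mup3, -2.01 for Apob, -1.65 for Fabp1, -1.51 for Eif2s2, -1.42 for Eif3c and -1.17 for Mrpl52. Among genes that rose, they were 2.28 for AW124722, 1.94 for Lin7b, 1.75 for Malat1, 1.74 for Pik3cd and 1.67 for H2-D1, and -2.94 for Plat, -1.60 for Slc1a4, -1.48 for Acot4, -1.42 for Slc1a2 and -1.13 for Rhbg, whose rises were smaller than in Myc-intact liver. Myc mRNA itself had -2.49, with signals of 408, 527 and 368 in Apc livers, against 78.5, 23.3 and 65.5 in WT livers.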

How the results depend on the processing

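The count of 4302 calls lay between 3119 on the deposited scores and 6214 with array weights, and between 2539 and 3710 when 1 ApcMyc or Myc array was left out. When 1 Apc or WT array was left out, it lay between 3968 and 4932. The interaction count of 744 moved more. It was 1619 with array weights, 1309 with a variance trend, 1165 with median scaling, 194 with pseudocount 1, 1586 with pseudocount 64, 149 on quantile normalized scores, 162 on the deposited scores and 1397 without dim probe sets. Leaving out 1 array gave 159 to 929, with the lowest count without WT replicate 2. The cause was not tested. Single genes in the text were followed over the settings, except Osgin1, Prdx4 and Fgfr3. Calls of single genes in ApcMyc against Myc were followed over 16 or 17 settings. These did not include leaving out a single Apc or WT array. Of the 155 called genes followed, 138 kept their direction and their side of the threshold in all of these settings, and 17 lost the call in at least 1. Apoa1 and Cd68, which were without a call, were called with the same sign in 5 and 4 of 17 settings. A total of 4 genes without a call turned sign. Cdh5 was -0.036 without Myc replicate 3, with 0.22 as the highest value when 1 array was left out. Ly6d was -0.011 without ApcMyc replicate 3 and at most 2.05. Lyz2 was 0.046 without ApcMyc replicate 2 and at least -0.22. Hc was -0.28 with median scaling, -0.12 without ApcMyc replicate 2 and -0.496 without Myc replicate 2, and at most 0.52. The called gene Snrnp48 turned sign too, to 0.50 with the mean of its probe sets. No paired analysis was possible because the titles of the ApcMyc and Myc arrays share no replicate numbers. For the interaction, a replicate block on the numbers in the Apc and WT titles gave 602 calls. Dim probe sets near the lowest signal have only small differences on the log2(signal + 16) scale.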
